A study of Mus musculus with 12 samples.

Results

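The protocadherin genes described here are the genes whose symbols begin with Pcdh, 71 of the 23183 genes listed for each library. They comprise 12 non-clustered genes, 15 genes of the alpha cluster (Pcdha), 22 of the beta cluster (Pcdhb) and 22 of the gamma cluster (Pcdhg). The libraries came from hippocampus and prefrontal cortex of male C57BL/6 mice, 3 that received abdominal X-ray irradiation (13 Gy in the library names) and 3 controls that were not irradiated. Both regions of a mouse were sequenced, so the 12 libraries form 4 groups of 3: hippocampus of irradiated mice, hippocampus of control mice, prefrontal cortex of irradiated mice and prefrontal cortex of control mice. The irradiation served as a model of chronic gastrointestinal injury, and tissue was taken in its chronic phase. The genotype label gives the strain alone. The sources used here give neither the age of the mice nor the interval between irradiation and collection.

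Protocadherins are transmembrane adhesion proteins of the cadherin superfamily, most of them expressed in the nervous system, and they act in neurite self-recognition, axon outgrowth and synapse formation. The non-clustered genes lie on several chromosomes. By their cytoplasmic tails most of them are divided into delta-1 (Pcdh1, Pcdh7, Pcdh9, Pcdh11x) and delta-2 protocadherins (Pcdh8, Pcdh10, Pcdh17, Pcdh18, Pcdh19). The alpha, beta and gamma genes stand side by side on mouse chromosome 18. Each alpha or gamma transcript joins 1 variable exon, which encodes the extracellular part and has its own promoter, to constant exons that the whole cluster shares, whereas each beta gene is a separate gene. Single neurons use a small, largely random choice of the variable promoters, which depends on the insulator protein CTCF, cohesin and DNA methylation. The C-type genes (Pcdhac1, Pcdhac2, Pcdhgc3, Pcdhgc4, Pcdhgc5) are chosen more uniformly. In whole tissue, therefore, the level of a clustered gene is a sum over many neurons with different choices, and fewer cells of a type and less RNA per cell cannot be told apart.

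Depth was estimated at 15.6 to 18.9 M fragments per library, and 12640 to 12967 genes reached 1 FPKM (fragments per kilobase of transcript and per M mapped fragments). The tissue labels were checked with marker genes. C1ql2, a dentate gyrus gene, lay between 29.5 and 38.1 FPKM in the 6 hippocampal libraries and between 0.347 and 0.846 FPKM in the 6 prefrontal libraries. Of 8 hippocampal subfield markers, C1ql2 among them, 6 were higher in hippocampus in both sets of mice. In control mice 1 of the 8 (Calb1) was lower in hippocampus. Of 8 cortical layer markers, 7 were lower in hippocampus in both sets of mice. Genes that mark striatal neurons were also measured in the prefrontal libraries. The dopamine receptor gene Drd2 lay between 1.23 and 1.96 FPKM in hippocampus and between 19.7 and 21.8 FPKM in prefrontal cortex of irradiated mice, and between 1.29 and 1.49 FPKM and 19.04 and 24.4 FPKM in control mice. The adenosine receptor gene Adora2a lay between 0.633 and 0.940 FPKM in hippocampus and between 27.2 and 30.2 FPKM in prefrontal cortex of irradiated mice, and between 0.562 and 0.802 FPKM and 29.5 and 37.6 FPKM in control mice. Both were lower in hippocampus in both sets of mice. Choroid plexus markers summed to 3122 to 5842 FPKM in 5 hippocampal libraries, to 65.0 FPKM in the hippocampus of irradiated mouse 2, and to 3.94 to 65.3 FPKM in prefrontal cortex. These differences in marker levels run alongside every region comparison below. Neither their source, such as the dissection, nor their part in those comparisons was tested.

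Pcdh20, Pcdh19 and Pcdh8 were the non-clustered genes with the clearest excess in hippocampus, and Pcdh10, Pcdh7 and Pcdh11x those with the clearest deficit. The DNA just upstream of 4 of these genes is shown. The genes differ by region in opposite directions, and their upstream sequences differ in CpG content. A relation between CpG content and region difference was not tested. Pcdh7 and Pcdh11x are not shown, so Pcdh10 alone stands for the lower genes. All 250 bases of the Pcdh7 window lie in annotated exons, and Pcdh11x had no usable window. Each line holds the bases of the RefSeq promoter window (GRCm38.p6, 250 bases before a start) that lie outside the gene and any annotated exon, 5′ to 3′ on the strand of the gene, with each CG dinucleotide in capitals. The regions are chr14:88471397-88471646 on the minus strand for Pcdh20, chrX:133689045-133689243 on the minus strand for Pcdh19, chr14:79771313-79771562 on the minus strand for Pcdh8 and chr3:45378261-45378397 on the plus strand for Pcdh10.
Pcdh20: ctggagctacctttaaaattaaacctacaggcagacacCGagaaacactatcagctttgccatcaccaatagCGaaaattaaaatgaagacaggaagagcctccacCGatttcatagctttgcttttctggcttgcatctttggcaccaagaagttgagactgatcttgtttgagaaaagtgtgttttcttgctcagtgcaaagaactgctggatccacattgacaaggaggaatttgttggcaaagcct
Pcdh19: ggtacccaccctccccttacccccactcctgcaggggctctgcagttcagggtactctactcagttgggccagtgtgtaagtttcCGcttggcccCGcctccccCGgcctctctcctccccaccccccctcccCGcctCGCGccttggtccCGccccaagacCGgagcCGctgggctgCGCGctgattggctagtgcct
Pcdh8: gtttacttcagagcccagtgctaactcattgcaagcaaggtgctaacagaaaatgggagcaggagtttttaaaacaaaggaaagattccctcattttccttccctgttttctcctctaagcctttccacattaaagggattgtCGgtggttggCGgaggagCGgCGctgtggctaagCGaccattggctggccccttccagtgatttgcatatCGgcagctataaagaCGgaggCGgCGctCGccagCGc
Pcdh10: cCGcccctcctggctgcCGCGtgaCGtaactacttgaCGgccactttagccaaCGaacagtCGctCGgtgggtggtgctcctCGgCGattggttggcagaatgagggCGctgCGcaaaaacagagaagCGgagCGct

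Over the whole window of 250 bases, Pcdh20 held 3 CG dinucleotides and 29.0% of 32851 mouse promoter windows held fewer. Pcdh8 held 11, Pcdh19 held 16 and Pcdh10 held 22, with 64.4%, 74.6% and 85.2% of windows below them. The median window held 6. On either strand, the TATA box letters TATAAA occurred once in the Pcdh8 window and in none of the other 3, against 12.4% of all windows. The cyclic AMP response element TGACGTCA, found in 1.5% of all windows, was in none of the 4. The letters CCCTC, part of the CTCF site and present in 60.5% of windows, occurred 2 times each in the Pcdh10 and Pcdh19 windows, once in that of Pcdh8 and not in that of Pcdh20. The Pcdh7 window, which is not shown, held 7 CG dinucleotides and the letters CCCTC 6 times. A match or its absence describes these letters in this window.

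Pcdh20 (chromosome 14, 88464743 to 88471396), which positions layer 4 neurons in the cortex of the developing mouse, showed the widest gap between the regions among all protocadherin genes. Its level was 23.9, 26.2 and 26.4 FPKM in hippocampus and 2.27, 2.78 and 3.48 FPKM in prefrontal cortex of irradiated mice. In control mice it was 25.6, 23.3 and 28.2 FPKM in hippocampus and 3.28, 3.48 and 3.41 FPKM in prefrontal cortex. Every hippocampal library lay far above every prefrontal one. On the scale of log2(FPKM + 1), hippocampus exceeded prefrontal cortex by 2.80 ± 0.11 (SE) in irradiated mice and by 2.60 ± 0.08 in control mice (limma, Benjamini-Hochberg adjusted p over all genes tested = 3.65e-06 and 2.1e-07, 3 libraries a group).

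Pcdh19 (chromosome X, 133582860 to 133689044), the delta-2 gene whose human counterpart is mutated in a form of childhood epilepsy, also lay higher in hippocampus. It measured 12.8, 13.7 and 13.8 FPKM in hippocampus and 6.05, 5.50 and 6.64 FPKM in prefrontal cortex of irradiated mice. The control values were 10.5, 12.5 and 15.2 FPKM in hippocampus and 5.18, 6.74 and 7.18 FPKM in prefrontal cortex. The regions did not overlap in either set, and the difference was 1.03 ± 0.08 in irradiated mice and 0.90 ± 0.14 in control mice (adjusted p = 6.05e-05 and 0.00122).

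Pcdh8 (chromosome 14, 79766772 to 79771312), known in rat as arcadlin, a synaptic protein induced by neuronal activity, followed the same direction. Irradiated mice had 19.8, 20.2 and 19.8 FPKM in hippocampus and 9.91, 9.51 and 13.3 FPKM in prefrontal cortex. Control mice had 14.9, 18.4 and 18.9 FPKM in hippocampus and 8.29, 12.1 and 12.3 FPKM in prefrontal cortex. Again no prefrontal library reached a hippocampal one, with a difference of 0.83 ± 0.11 in irradiated mice and 0.64 ± 0.14 in control mice (adjusted p = 0.00122 and 0.00921).

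The delta-2 gene Pcdh10 (chromosome 3, 45378398 to 45434579), which recruits the WAVE actin regulators and is needed for the growth of striatal axons in mouse, showed the reverse pattern. Its hippocampal values were 28.2, 28.0 and 28.2 FPKM in irradiated mice, where prefrontal cortex had 51.3, 59.4 and 54.4 FPKM. In control mice hippocampus had 20.5, 26.3 and 24.9 FPKM and prefrontal cortex 42.5, 60.04 and 51.4 FPKM. All 6 mice had less Pcdh10 in hippocampus. The difference was -0.94 ± 0.06 in irradiated mice and -1.06 ± 0.13 in control mice (adjusted p = 3.63e-05 and 0.000256).

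Pcdh7 (chromosome 5, 57716145 to 58133236), a delta-1 gene, was lower in hippocampus to about the same extent. Irradiated mice had 15.1, 14.7 and 13.04 FPKM in hippocampus and 23.4, 31.8 and 29.8 FPKM in prefrontal cortex, a difference of -0.93 ± 0.11 (adjusted p = 0.000688). Control mice had 9.59, 12.0 and 13.2 FPKM in hippocampus and 18.3, 29.9 and 25.5 FPKM in prefrontal cortex, a difference of -1.005 ± 0.168 (adjusted p = 0.00172). No hippocampal library reached a prefrontal one.

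The X-linked delta-1 gene Pcdh11x (chromosome X, 120290238 to 120910622) lay at a lower level. It had 2.16, 2.04 and 1.90 FPKM in hippocampus and 3.13, 3.26 and 3.4999 FPKM in prefrontal cortex of irradiated mice. In control mice it had 1.29, 2.13 and 1.34 FPKM in hippocampus and 2.54, 3.69 and 3.97 FPKM in prefrontal cortex. The hippocampal values were the lower ones in both sets, with differences of -0.50 ± 0.09 in irradiated and -0.77 ± 0.16 in control mice (adjusted p = 0.0034 and 0.00662).

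**Figure D1:**
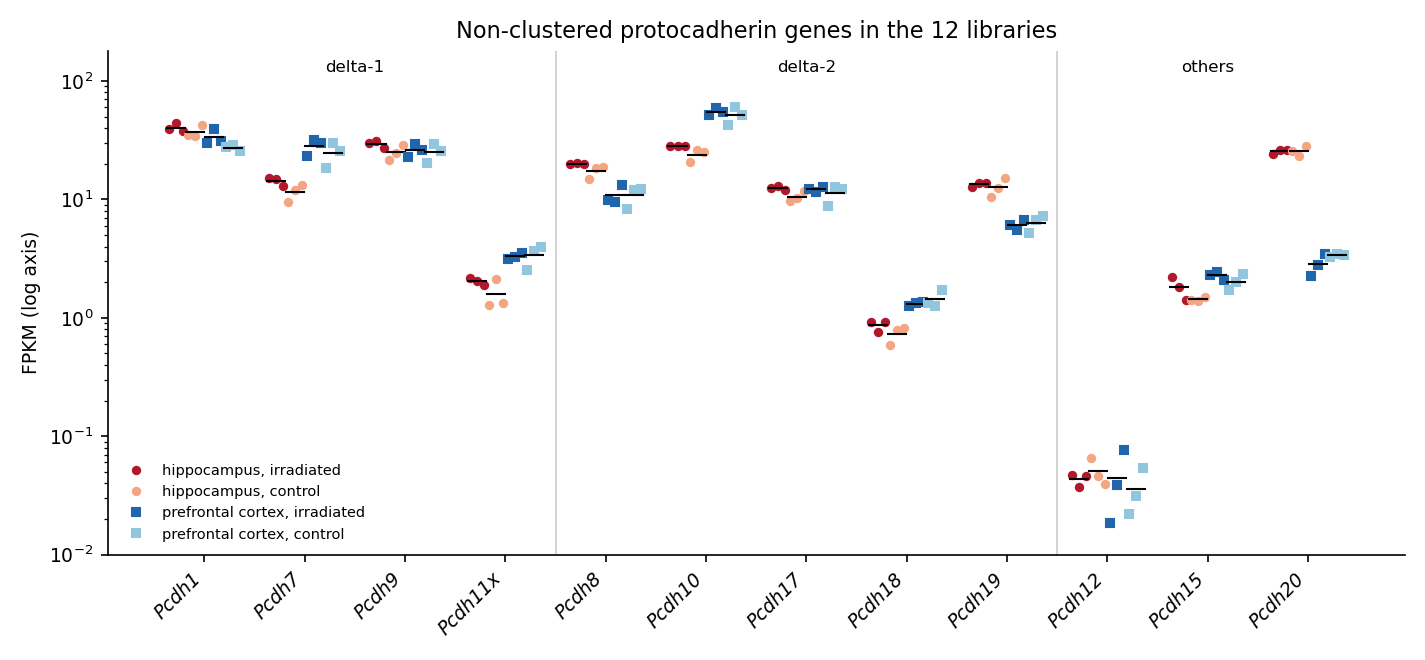
Levels of the 12 non-clustered protocadherin genes in the 12 libraries (FPKM, log axis). Each point is 1 library, each black line the mean of 3, circles hippocampus and squares prefrontal cortex. Pcdh20, Pcdh19 and Pcdh8 stand higher in hippocampus, Pcdh10, Pcdh7 and Pcdh11x lower, and Pcdh12 lies below 0.08 FPKM throughout.

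Pcdh1 and Pcdh18 passed the threshold in control mice only. Pcdh1 (chromosome 18), a delta-1 gene also active in airway epithelium, had 39.4, 44.4 and 37.5 FPKM in hippocampus and 30.1, 39.2 and 31.2 FPKM in prefrontal cortex of irradiated mice. Control mice had 34.7, 34.4 and 42.4 FPKM in hippocampus and 27.8, 28.6 and 25.7 FPKM in prefrontal cortex. Prefrontal cortex of irradiated mouse 2 reached into the hippocampal range, and the difference was 0.27 ± 0.11 in irradiated mice and 0.42 ± 0.09 in control mice (adjusted p = 0.0985 and 0.00627). Without that library it was 0.39 in irradiated mice (adjusted p = 0.0123).
Pcdh18 (chromosome 3), a delta-2 gene close to the lowest level tested (a mean of 1 FPKM over the libraries compared), measured 0.929, 0.756 and 0.923 FPKM in hippocampus and 1.26, 1.32 and 1.37 FPKM in prefrontal cortex of irradiated mice. The control libraries gave 0.590, 0.783 and 0.813 FPKM in hippocampus and 1.32, 1.27 and 1.73 FPKM in prefrontal cortex. Hippocampus was below prefrontal cortex in all 6 mice, with differences of -0.31 ± 0.10 in irradiated mice and -0.49 ± 0.12 in control mice (adjusted p = 0.0507 and 0.0114). Pcdh18 also passed in irradiated mice when the lowest mean tested was 0.1 FPKM (adjusted p = 0.0277). Neither gene was called in the interaction test between the sets of mice.

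The other 4 non-clustered genes did not pass in either set. Pcdh9 (chromosome 14), a delta-1 gene and the third most abundant of the 12, had 29.7, 31.1 and 27.2 FPKM in hippocampus and 23.0, 29.5 and 25.9 FPKM in prefrontal cortex of irradiated mice. Its control values were 21.6, 24.8 and 28.5 FPKM in hippocampus and 20.2, 29.3 and 25.7 FPKM in prefrontal cortex, so the regions overlapped. Pcdh17 (chromosome 14), a delta-2 gene of corticobasal ganglia synapses in mouse, was equally level, at 12.6, 12.9 and 12.1 FPKM in hippocampus and 12.2, 11.6 and 12.6 FPKM in prefrontal cortex of irradiated mice. Control mice had 9.63, 10.3 and 11.7 FPKM in hippocampus and 8.72, 12.7 and 12.3 FPKM in prefrontal cortex.
Pcdh15 (chromosome 10), known as a component of the tip links of inner ear hair cells, had 2.22, 1.81 and 1.41 FPKM in hippocampus and 2.32, 2.44 and 2.07 FPKM in prefrontal cortex of irradiated mice. In control mice it had 1.41, 1.38 and 1.495 FPKM in hippocampus and 1.72, 2.01 and 2.34 FPKM in prefrontal cortex. The control groups did not overlap but the difference of -0.31 ± 0.11 missed the threshold (adjusted p = 0.056).
Pcdh12 (chromosome 18), a gene of vascular endothelium, had 0.0471, 0.0372 and 0.0457 FPKM in hippocampus and 0.0185, 0.0387 and 0.0766 FPKM in prefrontal cortex of irradiated mice. It had 0.0657, 0.0463 and 0.0394 FPKM in hippocampus and 0.0220, 0.0310 and 0.0542 FPKM in prefrontal cortex of control mice. Those values correspond to 2 to 8 fragments per library, and the gene was too low to be tested.

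The clustered genes occupied chromosome 18 from 36930285 (start of Pcdha1) to 37841873 (end of Pcdhgc5). A property of the annotation limits how their values can be read. In the GENCODE M21 annotation, 38.0 to 54.9% of the exon bases of an alpha gene (median 53.4%) also belonged to another protocadherin gene, as did 27.8 to 66.8% for a gamma gene (median 44.7%). For the beta genes this share ran from 0 to 9.70% with a median of 0, and for the non-clustered genes it was 0. How the deposited values divided fragments from shared constant exons was not stated. The values of the beta gene Pcdhb1 fell on whole numbers of fragments (1 to 12 per library, mean distance to a whole number 0.017), whereas those of the alpha gene Pcdha8 did not at any length tried (0.134). No other clustered gene was checked in this way. Alpha and gamma values are therefore uncertain as counts of a single variable exon. Beta genes share few annotated exon positions, but similarity of sequence between protocadherin genes was not measured.

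Summed over the genes, the gamma cluster gave 171 ± 7.8 FPKM in hippocampus, against 189 ± 17 FPKM in prefrontal cortex of irradiated mice (SD, n = 3). In control mice it gave 168 ± 6.8 FPKM in hippocampus, against 190 ± 8.1 FPKM in prefrontal cortex. The beta cluster summed to 53.6 ± 2.0 FPKM in hippocampus, against 51.7 ± 2.6 FPKM in prefrontal cortex of irradiated mice, and to 48.2 ± 5.0 and 48.8 ± 5.5 FPKM in control mice. The alpha cluster summed to 35.9 ± 0.63 FPKM in hippocampus, against 44.1 ± 2.0 FPKM in prefrontal cortex of irradiated mice, and to 32.4 ± 2.9 and 40.9 ± 2.4 FPKM in control mice. Gamma genes thus held 65.6 to 67.9% of the clustered total in every group mean, and the alpha sums of the 2 regions did not overlap in either set of mice. A few C-type genes carried much of these sums. Pcdhac2 made up 38.1 to 41.9% of the alpha sum, and the 3 gamma C-type genes 42.9 to 46.4% of the gamma sum, in the group means.

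**Figure D2:**
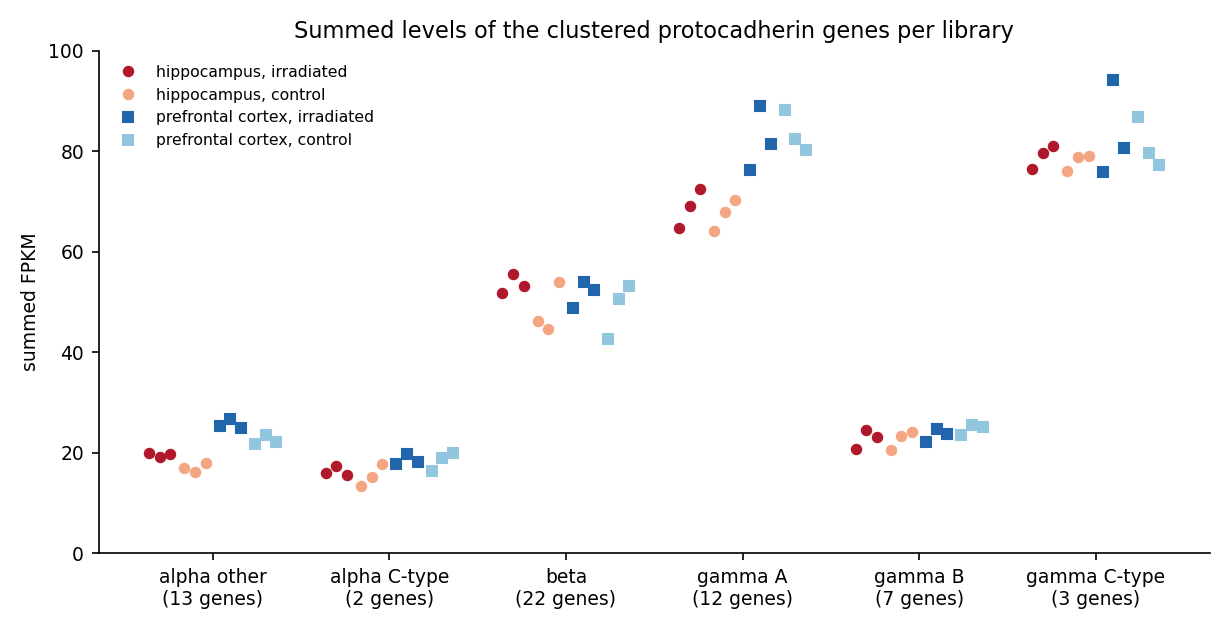
Summed FPKM of the clustered protocadherin genes in each library, by cluster and type. Each point is 1 library (3 per group). The alpha genes other than the C-type ones and the gamma A genes lie lower in hippocampus than in prefrontal cortex, while the beta and gamma B sums of the regions overlap.

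In the region comparisons as a whole, 19 of 66 protocadherin genes tested differed in irradiated mice, 7 higher and 12 lower in hippocampus, beside 29.2% of all 12878 genes tested (13.9% higher, 15.3% lower). In control mice 19 of 62 differed, 5 higher and 14 lower, beside 30.3% of all 12923 genes tested (15.7% higher, 14.6% lower). The family as a whole was therefore called about as often as other genes, with more calls on the lower than on the higher side. The median difference of the tested members was -0.08 in irradiated and -0.11 in control mice, against 0.00 and 0.01 over all genes tested. Most neuron markers moved the same way, with 3 of 5 lower in hippocampus of irradiated mice (sums of 1943 to 2095 FPKM in hippocampus and 2501 to 2676 FPKM in prefrontal cortex) and 4 of 5 in control mice (1918 to 2044 and 2482 to 2658 FPKM). Snap25 was the largest part of these sums. The marker Map2 went the other way without passing, at means of 198 against 178 FPKM in irradiated and 197 against 184 FPKM in control mice. In both sets 4 of 5 astrocyte and 5 of 5 oligodendrocyte markers were higher in hippocampus. The part of these cells in the region differences was not tested. By class, 3 non-clustered genes were higher and 3 lower in irradiated mice, of 11 tested, and 4 were higher and 4 lower in control mice, also of 11. Of the alpha genes, 3 of 13 were lower in irradiated and 2 of 11 in control mice, and none was higher. Of the beta genes, 2 of 21 were higher in irradiated mice and 0 of 19 passed in control mice. Of the gamma genes, 2 were higher and 6 lower in irradiated mice, and 1 was higher and 8 lower in control mice, of 21 tested each time.

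Among the gamma C-type genes, Pcdhgc3 and Pcdhgc5 differed between the regions in opposite directions. Pcdhgc3, which promotes dendrite branching in mouse cortical neurons and binds Axin1, had 34.9, 35.02 and 39.9 FPKM in hippocampus and 26.2, 31.3 and 28.7 FPKM in prefrontal cortex of irradiated mice. In control mice it had 36.3, 37.5 and 35.3 FPKM in hippocampus and 29.1, 27.9 and 29.0 FPKM in prefrontal cortex. It was higher in hippocampus in all 6 mice, by 0.34 ± 0.08 in irradiated mice and 0.33 ± 0.06 in control mice (adjusted p = 0.0168 and 0.0024).
Pcdhgc5, whose protein binds GABA type A receptors in rat, had 36.9, 39.8 and 36.6 FPKM in hippocampus and 45.4, 57.9 and 46.9 FPKM in prefrontal cortex of irradiated mice. Its control values were 35.6, 37.5 and 39.6 FPKM in hippocampus and 53.3, 47.0 and 44.1 FPKM in prefrontal cortex. It was lower in hippocampus in all 6 mice, with differences of -0.39 ± 0.09 and -0.35 ± 0.08 (adjusted p = 0.0163 in irradiated and 0.0102 in control mice). In irradiated mice the Pcdhgc3 call was lost without hippocampus of mouse 3 (adjusted p = 0.0541) or prefrontal cortex of mouse 1 (0.0577), and the Pcdhgc5 call without hippocampus of mouse 1 (0.0587) or mouse 3 (0.052).
The ratio of Pcdhgc5 to Pcdhgc3 was 1.04 ± 0.11 in hippocampus and 1.74 ± 0.11 in prefrontal cortex of irradiated mice (SD, n = 3), and 1.03 ± 0.07 and 1.68 ± 0.16 in control mice, with no overlap between regions.
Pcdhgc4, the C-type gene needed for survival of interneurons in mouse, had 4.55 to 4.91 FPKM in hippocampus and 4.22 to 5.11 FPKM in prefrontal cortex of irradiated mice, and 3.94 to 4.2002 and 4.22 to 4.79 FPKM in control mice. It did not pass in either set. In the alpha cluster, Pcdhac2, which is the isoform of serotonergic neurons in mouse, had 14.4, 16.0 and 13.9 FPKM in hippocampus and 16.3, 18.1 and 16.1 FPKM in prefrontal cortex of irradiated mice. Control mice had 12.1, 13.02 and 15.7 FPKM in hippocampus and 14.5, 17.1 and 18.4 FPKM in prefrontal cortex. Every mouse had less Pcdhac2 in hippocampus, yet the differences of -0.18 ± 0.07 and -0.28 ± 0.11 missed the threshold (adjusted p = 0.117 in irradiated and 0.0944 in control mice). The remaining alpha C-type gene, Pcdhac1, lay between 1.28 and 2.08 FPKM in all 12 libraries.

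The gamma A genes accounted for most of the lower gamma calls. Of the 12, 5 were lower and 1 (Pcdhga1) higher in hippocampus of irradiated mice, with a median difference of -0.18, and 7 were lower in control mice, with a median of -0.33. Over all genes tested, 15.3% were lower in irradiated and 14.6% in control mice. None of the 6 gamma B genes tested passed in either set, and their medians were -0.05 and -0.08. Whether A and B genes differ from each other was not tested. Pcdhga6 had 6.19, 6.81 and 7.19 FPKM in hippocampus and 10.3, 9.18 and 10.2 FPKM in prefrontal cortex of irradiated mice. In control mice it had 5.79, 5.87 and 7.19 FPKM in hippocampus and 11.5, 10.4 and 11.0 FPKM in prefrontal cortex, a clear separation in both sets (-0.50 ± 0.08 and -0.72 ± 0.09, adjusted p = 0.00234 in irradiated and 0.000363 in control mice).
Pcdhga7 had 5.604, 6.27 and 6.23 FPKM in hippocampus and 8.18, 10.6 and 8.60 FPKM in prefrontal cortex of irradiated mice. The control libraries held 4.55, 5.85 and 5.46 FPKM in hippocampus and 8.79, 9.37 and 8.14 FPKM in prefrontal cortex. The regions were again separate, with differences of -0.52 ± 0.10 in irradiated and -0.64 ± 0.10 in control mice (adjusted p = 0.00604 and 0.00109).
Pcdhga4, Pcdhga9 and Pcdhga12 were lower in both sets as well, with differences between -0.59 and -0.33. Pcdhga5 and Pcdhga8 passed in control mice only, at -0.34 ± 0.08 and -0.32 ± 0.10 (adjusted p = 0.0104 and 0.0329). Pcdhga1 passed in irradiated mice only, at 0.39 ± 0.10 (adjusted p = 0.0188), and its control values in prefrontal cortex were spread from 1.98 to 5.42 FPKM. Several of these calls hung on 1 library. In control mice Pcdhga4 lost its call without any 1 of 4 libraries (adjusted p up to 0.0949), Pcdhga8 likewise without any 1 of 4 (up to 0.11) and Pcdhga12 without hippocampus of mouse 1 or 2 (up to 0.0531). In irradiated mice Pcdhga9 lost it without prefrontal cortex of mouse 1 or 2 (up to 0.0598) and Pcdhga1 without hippocampus of mouse 3 or prefrontal cortex of mouse 1 or 3 (up to 0.0661). Pcdhga11, the third most abundant gamma gene, was nearly level, at 10.2 to 12.0 FPKM in hippocampus and 10.4 to 11.9 FPKM in prefrontal cortex over all mice.

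Of the alpha genes, Pcdha9 and Pcdha11 were lower in hippocampus in both sets. Pcdha9 had 1.64, 2.01 and 1.56 FPKM in hippocampus and 2.36, 2.72 and 2.44 FPKM in prefrontal cortex of irradiated mice, and 1.403, 1.98 and 1.61 FPKM and 2.91, 2.82 and 2.60 FPKM in control mice. The regions were separate in both sets, by -0.36 ± 0.10 and -0.51 ± 0.11 (adjusted p = 0.031 and 0.00646). Pcdha11 had 0.921, 0.904 and 1.32 FPKM in hippocampus and 1.74, 2.27 and 1.94 FPKM in prefrontal cortex of irradiated mice, and 0.838, 0.753 and 1.09 FPKM and 2.47, 1.34 and 1.95 FPKM in control mice. It differed by -0.54 ± 0.12 in irradiated and -0.61 ± 0.15 in control mice (adjusted p = 0.0127 and 0.0144). The Pcdha9 call in irradiated mice was lost without any 1 of 5 libraries (adjusted p up to 0.0983), and that of Pcdha11 without hippocampus of irradiated mouse 1 (0.0508) or of control mouse 2 (0.0562). GENCODE M21 gives the symbol Pcdha11 to more than 1 gene, so the identity of this entry is uncertain. Pcdha6 passed in irradiated mice only, at 0.815, 0.573 and 1.17 FPKM in hippocampus and 1.51, 2.16 and 1.35 FPKM in prefrontal cortex (-0.53 ± 0.16, adjusted p = 0.0412), and lost its call without any 1 of 4 libraries (up to 0.116) or with the mouse as a block (0.0582). Pcdha12 and Pcdha5, the next most abundant alpha genes after Pcdhac2, did not pass in either set.

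The beta genes were the class in which the regions were closest. Pcdhb9, Pcdhb17 and Pcdhb20, the 3 most abundant, had 6.22 to 8.47, 4.67 to 5.90 and 3.64 to 3.76 FPKM in hippocampus and 6.99 to 7.89, 5.15 to 5.92 and 3.73 to 4.76 FPKM in prefrontal cortex of irradiated mice. In control mice Pcdhb9 and Pcdhb17 overlapped between the regions. Pcdhb20 did not, at 3.15 to 3.68 FPKM in hippocampus and 4.0 to 4.36 FPKM in prefrontal cortex. It was lower in hippocampus in all 6 mice. None of these 3 genes passed in either set. Pcdhb2 had 2.09, 2.32 and 2.08 FPKM in hippocampus and 1.49, 1.54 and 1.45 FPKM in prefrontal cortex of irradiated mice, without overlap (0.34 ± 0.09, adjusted p = 0.0224). In control mice its 1.63, 1.44 and 1.91 FPKM in hippocampus overlapped the 1.33, 1.67 and 1.27 FPKM in prefrontal cortex. Pcdhb4 had 1.63, 1.34 and 1.15 FPKM in hippocampus and 0.907, 0.874 and 0.675 FPKM in prefrontal cortex of irradiated mice (0.38 ± 0.12, adjusted p = 0.0458), and was below the level tested in control mice. Either call was lost without any 1 of 4 libraries (adjusted p up to 0.0668 for Pcdhb2 and 0.132 for Pcdhb4). The Pcdhb4 values of all 12 libraries, 0.488 to 1.63 FPKM, correspond to an estimated 28 to 111 fragments per library.

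**Figure D3:**
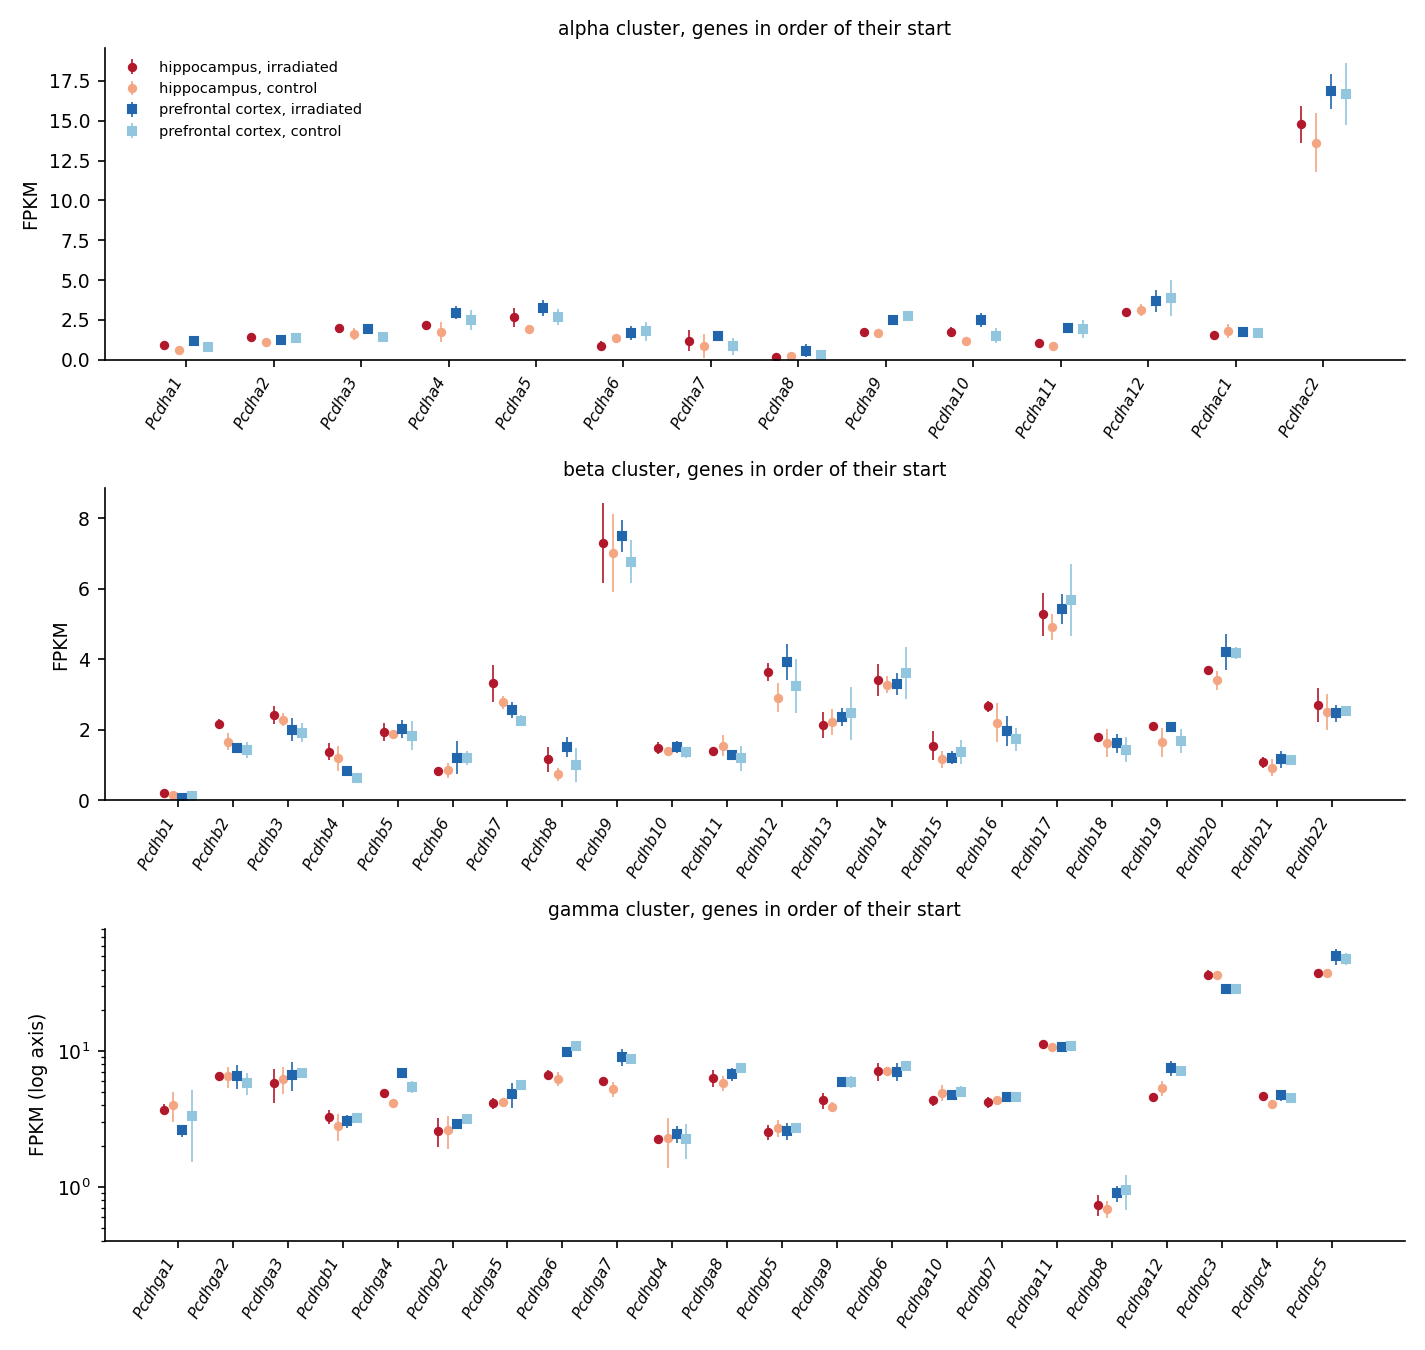
Levels of the clustered protocadherin genes in chromosomal order (mean ± SD of 3 libraries per group; FPKM, linear for alpha and beta, log axis for gamma). Pcdhac2, Pcdhgc3 and Pcdhgc5, at the 3′ ends of their clusters, stand above the other genes; Pcdha7-g, which has no annotated position, is not drawn.

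The 2 region comparisons used different mice and so share no library. Of the 19 genes called in each, 15 were called in both (78.9% of either list), all in the same direction, while among all genes 2815 were called in both (74.9% of the irradiated and 71.8% of the control list). Differences of the 62 members tested in both sets had the same sign in 48, and their Pearson correlation across genes was 0.97 (0.86 for the 51 clustered genes and 0.93 over 12740 genes), given as descriptions since genes are not independent replicates. Across all 6 mice, with the mouse as a block, 33 of 65 members passed, 11 higher and 22 lower in hippocampus, beside 51.1% of all genes tested (25.9% higher, 25.2% lower). That fit was chosen after seeing the data. It added small differences in which the mice moved alike, among them Pcdhac2 at -0.23 ± 0.04 (adjusted p = 0.000859), Pcdh15 at -0.27 ± 0.07 (adjusted p = 0.00871) and Pcdhb7 at 0.24 ± 0.07 (adjusted p = 0.00976). In it 7 of 12 alpha genes were lower and none higher, and of 21 beta genes 5 were higher (Pcdhb2, Pcdhb3, Pcdhb4, Pcdhb7, Pcdhb16) and 2 lower (Pcdhb6, Pcdhb20).

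**Figure D4:**
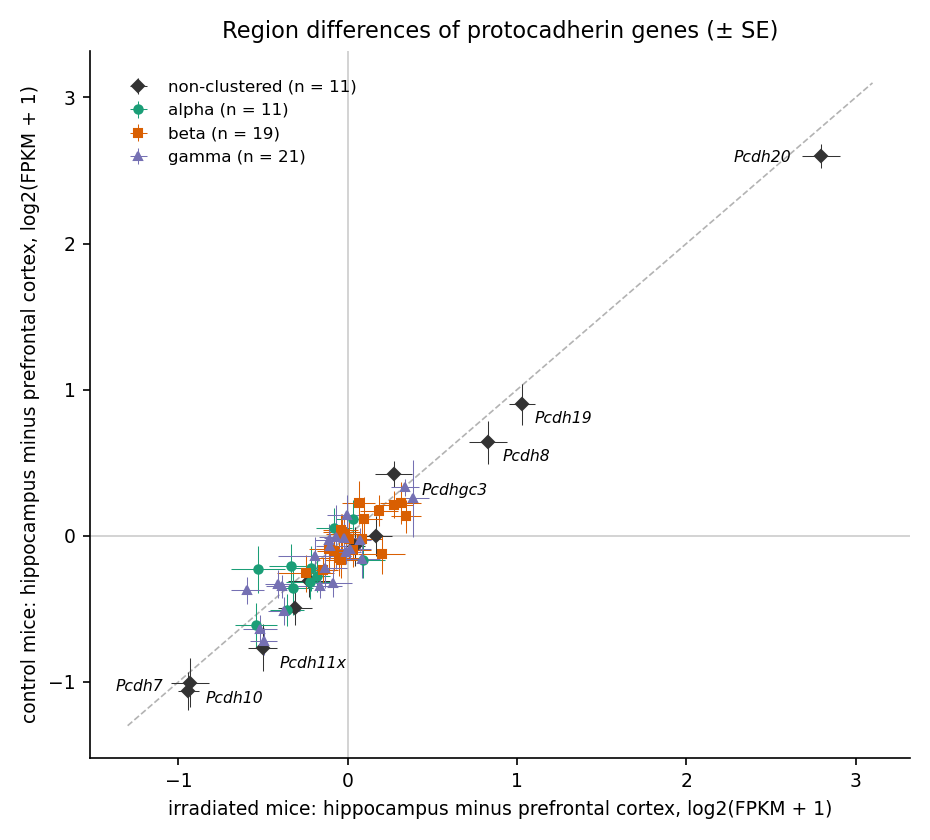
Region differences (hippocampus minus prefrontal cortex, log2(FPKM + 1), ± SE) of the 62 protocadherin genes tested in both sets, irradiated mice on the horizontal and control mice on the vertical axis. The dashed line marks equal differences; Pcdh20, Pcdh19 and Pcdh8 lie at the upper end, Pcdh7, Pcdh10 and Pcdh11x at the lower end.

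The comparison of irradiated with control mice asks whether abdominal irradiation went along with a change in these brain regions. No protocadherin gene passed in either region. In hippocampus the 60 members tested gave 0 calls, beside 0% of all 12947 genes tested. At an unadjusted p under 0.05, limma gave 9 members higher and 1 lower, beside 4.7% of genes higher and 5.81% lower. The members leaned upward, with 45 of 60 differences positive (47% of all genes) and a median of 0.09 against -0.01. Of all genes with transcripts of 4000 bases or more, 65.5% were positive, with a median of 0.04. In 9 members all irradiated libraries lay above all control libraries and in none below, beside 7.41% of genes above and 8.16% below. By class, the median was 0.22 for 10 non-clustered genes, 0.19 for 11 alpha, 0.09 for 18 beta and 0.01 for 21 gamma genes. Hippocampus of control mouse 1 was the lowest control library for Pcdh7, Pcdh8, Pcdh9, Pcdh10, Pcdh11x, Pcdh17 and Pcdh19. Without it the median was 0.05 for all members, 0.13 for the non-clustered and 0.11 for the alpha genes.

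The members with the smallest p in hippocampus, none of which passed, were Pcdh17, Pcdha10 and Pcdhga4 on the higher side and Pcdha6, Pcdhga12 and Pcdhga10 on the lower side. Pcdh17 had 12.6, 12.9 and 12.1 FPKM in irradiated and 9.63, 10.3 and 11.7 FPKM in control mice, without overlap (0.23 ± 0.08, adjusted p = 0.475). Pcdh10 also stood apart, at 28.2, 28.0 and 28.2 FPKM in irradiated and 20.5, 26.3 and 24.9 FPKM in control mice (0.23 ± 0.09, adjusted p = 0.475). Pcdha6 went the other way, with 0.815, 0.573 and 1.17 FPKM in irradiated and 1.36, 1.16 and 1.56 FPKM in control mice, overlapping narrowly (-0.36 ± 0.14, adjusted p = 0.475). Pcdhga12 and Pcdhga10 differed by -0.17 ± 0.09 and -0.15 ± 0.10.

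In prefrontal cortex 0 of 64 members passed, beside 0.00786% of all 12729 genes tested, that is 1 gene. Unadjusted, 5 members were higher and 0 lower, beside 2.44% and 4.79% of genes. Of 64 differences 37 were positive (51.2% of all genes, and 66.3% of those with transcripts of 4000 bases or more). The median of the members was 0.02 against 0.00 over all genes, and 4 members lay above without overlap and 1 below, beside 6.25% and 7.44% of genes. Pcdh1 had 30.1, 39.2 and 31.2 FPKM in irradiated and 27.8, 28.6 and 25.7 FPKM in control mice (0.27 ± 0.10, adjusted p = 0.59). On the lower side the smallest p belonged to Pcdhga6, Pcdh20 and Pcdhga5, with differences of -0.14 ± 0.08, -0.20 ± 0.12 and -0.21 ± 0.12. One control library set the sign of the non-clustered genes here. Their median was 0.06 with all libraries and -0.08 (3 of 11 positive) without prefrontal cortex of control mouse 1, the shallowest library, in which every non-clustered gene but Pcdh1 and Pcdh18 had its lowest control value.

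In 2 of the 59 members tested in both regions, Pcdha10 and Pcdhga4, irradiated libraries lay above control libraries without overlap in both, beside 1.24% of 12456 genes. Pcdha10 had 2.11, 1.53 and 1.64 FPKM in irradiated and 1.37, 1.11 and 0.964 FPKM in control hippocampus, and 2.85, 2.61 and 2.00 FPKM in irradiated and 1.80, 1.77 and 0.959 FPKM in control prefrontal cortex. Pcdhga4 had 5.06, 4.75 and 4.996 FPKM in irradiated and 3.89, 4.41 and 4.15 FPKM in control hippocampus, and 7.32, 7.14 and 6.22 FPKM in irradiated and 6.13, 4.99 and 5.33 FPKM in control prefrontal cortex. The differences were 0.36 ± 0.12 in hippocampus and 0.49 ± 0.16 in prefrontal cortex for Pcdha10 (adjusted p = 0.475 and 0.538), and 0.21 ± 0.07 and 0.29 ± 0.10 for Pcdhga4 (adjusted p = 0.475 and 0.554). Both regions come from the same mice, so the second region is not an independent repeat. With the mean of both regions per mouse as 1 value, a fit chosen after seeing the data, Pcdhga4 differed by 0.25 ± 0.06 (adjusted p = 0.369) and Pcdha10 by 0.42 ± 0.12 (adjusted p = 0.384). Of 65 members 0 passed in that fit, beside 0.00776% of 12894 genes, and 7 were higher and 0 lower at an unadjusted p under 0.05, beside 4.04% and 6.07% of genes. Both genes share constant exons with their cluster, and GENCODE M21 lists no gene under the symbol Pcdha10. Of the exon bases of Pcdhga4, 66.8% also belonged to another protocadherin gene, the highest share among the gamma genes (median 44.7%).

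Summed over the 13 alpha genes other than the C-type ones, irradiated mice had 19.9, 19.1 and 19.7 FPKM and control mice 16.9, 16.2 and 17.9 FPKM in hippocampus. In prefrontal cortex irradiated mice had 25.2, 26.7 and 24.9 FPKM and control mice 21.8, 23.6 and 22.2 FPKM. The groups did not overlap in either region. With Pcdhac1 and Pcdhac2 added, the alpha sums overlapped in hippocampus (35.2 to 36.5 FPKM in irradiated and 30.3 to 35.7 FPKM in control mice). In prefrontal cortex these sums were separate (42.9 to 46.4 and 38.1 to 42.5 FPKM). The sums of the alpha C-type genes alone overlapped in both regions. No p is given for a sum over members chosen with earlier results known. The gamma A sums, at 64.7 to 72.6 FPKM in irradiated and 64.1 to 70.3 FPKM in control hippocampus and 76.2 to 89.1 and 80.2 to 88.2 FPKM in prefrontal cortex, overlapped in both regions. Pcdha7, chosen for description after its values were seen, was uneven among mice. It had 1.96, 0.646 and 1.02 FPKM in irradiated and 0.431, 0.434 and 1.75 FPKM in control hippocampus, and 1.48, 1.37 and 1.62 FPKM in irradiated and 0.634, 0.449 and 1.44 FPKM in control prefrontal cortex. Control mice 1 and 2 were low and control mouse 3 high in both regions.

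**Figure D5:**
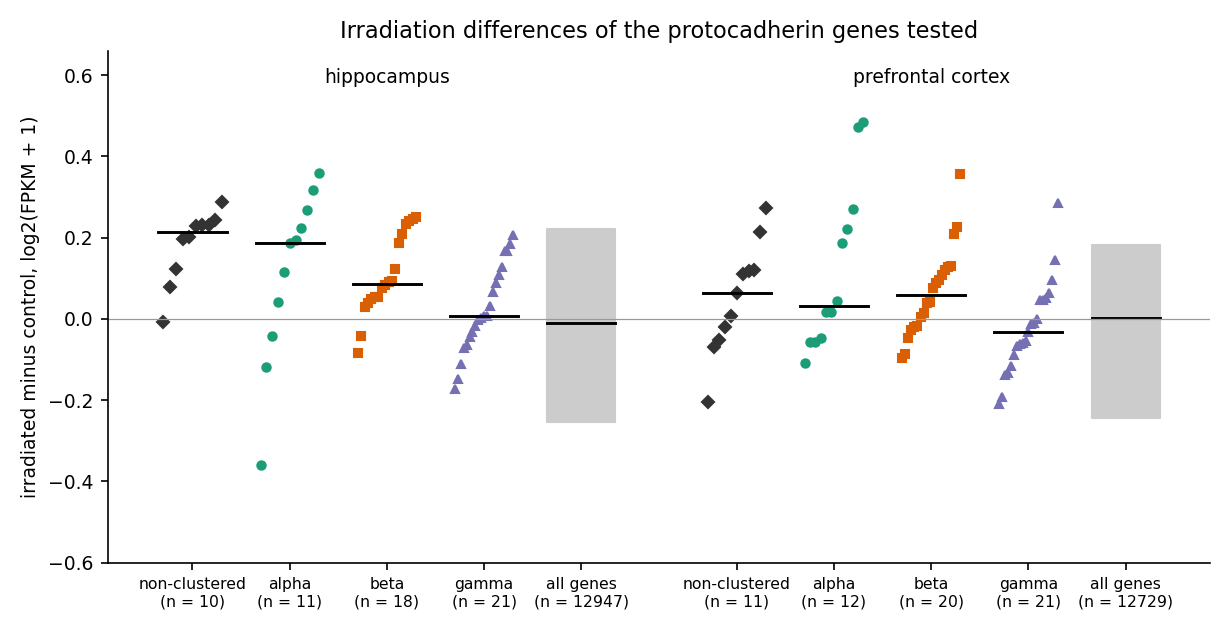
Differences between irradiated and control mice (log2(FPKM + 1)) of the protocadherin genes tested, by class and region. Each point is 1 gene, black lines are medians, and the grey boxes span the 5th to 95th percentile of all genes tested. Non-clustered genes lie mostly above 0 in hippocampus; no gene passed the threshold in either region.

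Other measures moved along with irradiation. In hippocampus all 6 endothelial markers were higher, with a summed level of 49.3 to 56.9 FPKM in irradiated and 21.5 to 32.5 FPKM in control mice. The 5 pericyte and smooth muscle markers summed to 62.1 to 74.7 FPKM in irradiated and 39.5 to 54.8 FPKM in control mice, and the 5 oligodendrocyte markers to 1828 to 1956 and 2018 to 2498 FPKM. In prefrontal cortex the endothelial sum was 57.3 to 68.1 FPKM in irradiated and 47.6 to 50.5 FPKM in control mice, and the oligodendrocyte sum 1263 to 1409 and 1494 to 1633 FPKM, while the pericyte and smooth muscle sums overlapped (54.3 to 63.3 and 57.6 to 58.6 FPKM). The 5 microglia markers summed to 73.5 to 76.6 FPKM in irradiated and 80.7 to 83.2 FPKM in control hippocampus, and overlapped in prefrontal cortex (71.8 to 77.8 and 73.3 to 81.8 FPKM). The 5 fibroblast markers summed to 43.2 to 51.7 FPKM in irradiated and 27.1 to 41.5 FPKM in control hippocampus, and to 7.22 to 11.5 and 12.8 to 15.9 FPKM in prefrontal cortex. No marker passed the threshold. The part of these cells in the differences above was not tested. Transcript length also moved with irradiation. In hippocampus the median difference between irradiated and control mice was -0.12 for genes with transcripts under 1500 bases and 0.04 for those of 4000 bases or more, and in prefrontal cortex it was -0.11 and 0.04. The longest transcripts of the non-clustered genes ran from 4529 to 11451 bases. Those of the alpha genes with an annotated length ran from 5206 to 5888 bases and those of the gamma genes from 4615 to 5777. For the beta genes the range was 2588 to 8695 bases. With the length trend removed, the members' median was 0.07 in hippocampus and -0.01 in prefrontal cortex, and 0 members passed. In hippocampus the class medians were then 0.12 for non-clustered, 0.11 for alpha, 0.07 for beta and -0.02 for gamma genes. In prefrontal cortex they were 0.02 for non-clustered, -0.02 for alpha, 0.05 for beta and -0.06 for gamma genes.

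Whether the irradiation difference itself differed between the regions was tested as an interaction over all 12 libraries. Of 65 members 0 passed, beside 0% of 12894 genes tested, and 0 reached an unadjusted p under 0.05, beside 3.27% of genes. The smallest p belonged to Pcdhga6, whose irradiation difference was 0.23 ± 0.12 higher in hippocampus than in prefrontal cortex, followed on that side by Pcdhb15 (0.33 ± 0.20) and Pcdhga8 (0.24 ± 0.15). On the other side stood Pcdhga12 (-0.22 ± 0.13), Pcdha6 (-0.30 ± 0.24) and Pcdh1 (-0.15 ± 0.15). The adjusted p was 1 for each of these.

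Of 20 regulators of clustered protocadherin promoter choice, 18 were tested. In both sets of mice the repressor Rest was higher in hippocampus and the DNA methyltransferases Dnmt1 and Dnmt3a were lower, while Ctcf and the cohesin genes Rad21 and Smc1a did not pass. No other regulator passed. The list thus gave 1 higher and 2 lower calls of 18 in each set, a smaller share than over all genes. Of all genes tested, 29.2% were called in irradiated and 30.3% in control mice, in either direction. Rest had 1.82 ± 0.04 FPKM in hippocampus, against 0.955 ± 0.25 FPKM in prefrontal cortex of irradiated mice (SD, n = 3), a difference of 0.54 ± 0.12 (SE; adjusted p = 0.0109). Dnmt3a had 7.16 ± 1.06 and 9.36 ± 0.92 FPKM, a difference of -0.35 ± 0.11 (adjusted p = 0.0499).
Of 23 partners of protocadherin proteins, 4 were higher and 5 lower in hippocampus of irradiated mice and 6 higher and 4 lower in control mice, of 22 tested, beside 13.9% of all genes higher and 15.3% lower in irradiated and 15.7% and 14.6% in control mice. The WAVE complex genes on the list were split in direction. Cyfip1 and Wasf1 were higher in both sets, at 0.60 ± 0.07 and 0.43 ± 0.06 in irradiated and 0.63 ± 0.09 and 0.61 ± 0.07 in control mice. By group means, Abi1, Nckap1 and Wasf3 were also higher in both sets, whereas Cyfip2, Brk1 and Abi2 were lower. The libraries of the regions overlapped for Wasf3 in both sets and for Abi2 in control mice. Cyfip2, the most abundant of the WAVE complex genes listed, had a hippocampal mean of 191.7 FPKM against a prefrontal 242.2 FPKM in irradiated mice. Its control means were 174.3 against 217.4 FPKM. Ptk2 (focal adhesion kinase) was lower in both sets, at -0.44 ± 0.06 and -0.43 ± 0.06, while the mean of Ptk2b was higher in both.
Among 30 other cadherin superfamily genes, of which 27 were tested, 8 were higher and 9 lower in hippocampus of irradiated mice and 4 higher and 13 lower in control mice, beside the same shares of all genes (29.2% in either direction in irradiated and 30.3% in control mice). Cdh22, Cdh7 and Cdh18 were lower in both sets, with differences between -1.45 and -0.99. No gene of the 3 lists passed between irradiated and control mice in either region.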

How the data were processed

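The deposited values, 1 table per library, were read as FPKM. The files name no unit, and this reading rests on the values themselves. Per the submitters' processing notes, TopHat and the build mm10 were used; the sources used here name no counting tool. Per the labels' protocols, Trizol RNA went into directional libraries, and the batch label is 1 throughout. Depth was estimated from the steps between low FPKM values.

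From the deposited FPKM, log2(FPKM + 1) was tested with limma 3.58.1 (limma-trend, R 4.3.3) over every gene averaging 1 FPKM or more in the libraries compared, with Benjamini-Hochberg adjustment over all of them and a threshold of 0.05. A fold on this scale understates the change of low genes. The code was tested on simulated data. Region was compared within irradiated and within control mice, irradiation within each region, and the difference of the irradiation effect as an interaction.

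The members and lists were chosen with earlier results of these data known. Named were all non-clustered genes, the C-type genes, the 3 most abundant genes of each cluster, genes that passed, and the 3 with the smallest p per direction where none passed. Pcdha7 was added after its values were seen. Titles tie both regions to the same numbered mouse. Deviations of the paired libraries correlated between -0.006 and 0.3, and those of different mice of the same treatment between -0.224 and 0.171. Hippocampus of control mouse 3 correlated 0.054 with its own prefrontal library and 0.171 with that of control mouse 2. For hippocampus of control mouse 2 the values were -0.006 with its own and 0.058 with that of control mouse 3. The pairing of those mice therefore rests on the titles.

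Alternatives were a pseudocount of 0.1, a lowest mean of 0.1 FPKM, no filter, equal totals, 1 fit over 12 libraries, removal of the transcript length trend, the mouse or number as a block, and leaving out each library. The fit within 6 mice and that on the mean of both regions were chosen after seeing the data.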

Additional observations from a re-analysis of the deposited data

How the results depend on the processing

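Leaving out 1 library at a time gave 13 to 17 protocadherin genes called between regions in irradiated mice (19 with all libraries), 16 to 22 in control mice (19), and 27 to 30 within the 6 mice (33). The other settings gave 18 to 21, 17 to 21 and 30 to 35. Between irradiated and control mice, and for the interaction, 0 were called under every setting. No difference that passed the threshold changed its sign under any setting tried. Differences near 0 did: in prefrontal cortex 7 of 11 non-clustered genes were higher in irradiated mice with all libraries and 3 of 11 without control mouse 1, where the median of all members was -0.02. Pcdh7, Pcdh8, Pcdh10, Pcdh11x, Pcdh19, Pcdh20, Pcdhga6 and Pcdhga7 passed in both region comparisons under every setting. With the mouse as a replicate block, 21 genes were called between regions in irradiated mice and 20 in control mice. That block added Pcdh1 in irradiated mice (adjusted p = 0.0095) and removed Pcdha6 (0.0582). Within the 6 mice, 30 were called with no replicate block. Between irradiated and control mice the replicate numbers mark different animals, and that block called 0. In 1 fit over 12 libraries Pcdhga1 no longer passed in irradiated mice (adjusted p = 0.23); the cause was not tested. With equal totals the median irradiation difference of all genes shifted to 0.07 in both regions, and that of the protocadherin genes to 0.16 in hippocampus and 0.09 in prefrontal cortex. Genes near 1 FPKM are limited by depth, and with 3 mice per group small differences may be missed. The alpha and gamma values are further limited by the exons their clusters share.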
